A study of Mus musculus with 6 samples.

Results

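The genes described here are 10 members of the machinery that starts new blood vessel branches: the growth factor gene Vegfa, the receptor genes Flt1, Kdr and Flt4, the co-receptor gene Eng, the peptide gene Apln with its receptor gene Aplnr, and the endothelial tip-cell genes Dll4, Angpt2 and Esm1. They were matched by gene symbol, and all 10 were found among the 27179 genes of the deposited table. The set was chosen on measured values as well as on function, since earlier results of CAP1-KO against Control in these same libraries were known when it was drawn up. Their fold changes and adjusted p-values in that contrast therefore describe these libraries and are no independent test.

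Poly(A) RNA was sequenced from the cerebral cortex of C57BL/6N mice taken at E18.5, close to the end of gestation. The 3 Control libraries (FF1, FF2 and FF4) came from Cap1 flx/flx embryos, in which both Cap1 alleles are flanked by recombination sites. The 3 CAP1-KO libraries (FCRE3, FCRE4 and FCRE5) came from Cap1flx/flx,Nestin-CRE embryos, which carry the same alleles and a Cre recombinase under the Nestin promoter. That promoter is active in neural progenitors, so recombination is directed mainly to the neural lineage. There was no Cre-only group, so the transgene and the loss of CAP1 cannot be told apart. The study asks how CAP1, a protein that binds actin and aids the turnover of its filaments, acts on gene expression in this tissue. The labels call the libraries biological replicates and say nothing on litters, so p-values measure only the spread between these libraries.

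In the developing brain, neurons and their progenitors release VEGF-A, and vessels that grow in from the surface follow it. KDR (VEGFR2) carries most of the signal, FLT1 (VEGFR1) binds VEGF-A tightly and acts largely as a trap, partly through a secreted form, and FLT4 (VEGFR3) binds VEGF-C and is found on tip cells and lymphatic vessels. The cell that leads a sprout, the tip cell, expresses DLL4, which activates Notch on its neighbours and keeps them as stalk cells. Apelin, its receptor, ANGPT2 and ESM1 are further products known from sprouting endothelium.

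Between 32443864 reads (FF4) and 36302598 reads (FCRE3) were recovered per library, and 1 CPM (the deposited depth-scaled count unit) corresponded to between 31.2 and 37.3 reads. The targeted gene, Cap1, averaged 184 ± 16.2 CPM (SD, n = 3) over the Control libraries, and CAP1-KO held 85.1 ± 2.0 CPM (SD, n = 3), with no overlap. The 10 cerebral cortex markers, Tbr1 among them, were all detected in every library. FF4 stood apart from the other Control libraries: the cortex markers summed to 2270 CPM there, against 3365 CPM in FF1, 3416 CPM in FF2 and a CAP1-KO range of 2269 to 2473 CPM. Markers of the striatum and ventral forebrain summed to 462 CPM in FF4, against 296 CPM in FF1, 269 CPM in FF2 and a CAP1-KO range of 413 to 450 CPM. Embryo sex was not balanced either. Xist, which silences one X chromosome in females, was at 0.58 CPM in FF1 and 2.05 CPM in FF4, whereas FF2 reached 2296 CPM and the CAP1-KO libraries 2398 to 2653 CPM.

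Of the 9 members that reached the mean of 1 CPM needed for the test, Flt1, Kdr, Eng and Apln fell in CAP1-KO, 0 rose and 5 did not pass. This is 4 of 9 members lower, beside 0.403% of all 13885 genes tested lower and 0.562% higher (limma on log2(CPM + 1), Benjamini-Hochberg adjusted p under 0.05 over all genes). Esm1 lay below the filter. The count of members that fell was 0 without FF1, without FCRE3 or without FCRE5, 1 without FF2, 3 without FCRE4 and 7 without FF4. Of all 13885 genes tested, those lower numbered 6 without FF1, 7 without FCRE3, 3 without FCRE5 and 11 without FF2. They numbered 175 without FCRE4 and 2623 without FF4, so the calls shifted over all genes too. In 6 of the 10 members every CAP1-KO library was below every Control library, and in 4 the groups overlapped. Over all genes tested, 14.6% were separated in this way with CAP1-KO lower and 11.1% with CAP1-KO higher. The median log2 fold change was -0.40 over the 9 members and -0.01 over all genes tested. In whole cortex, fewer endothelial cells and less RNA per endothelial cell cannot be told apart.

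**Figure D1:**
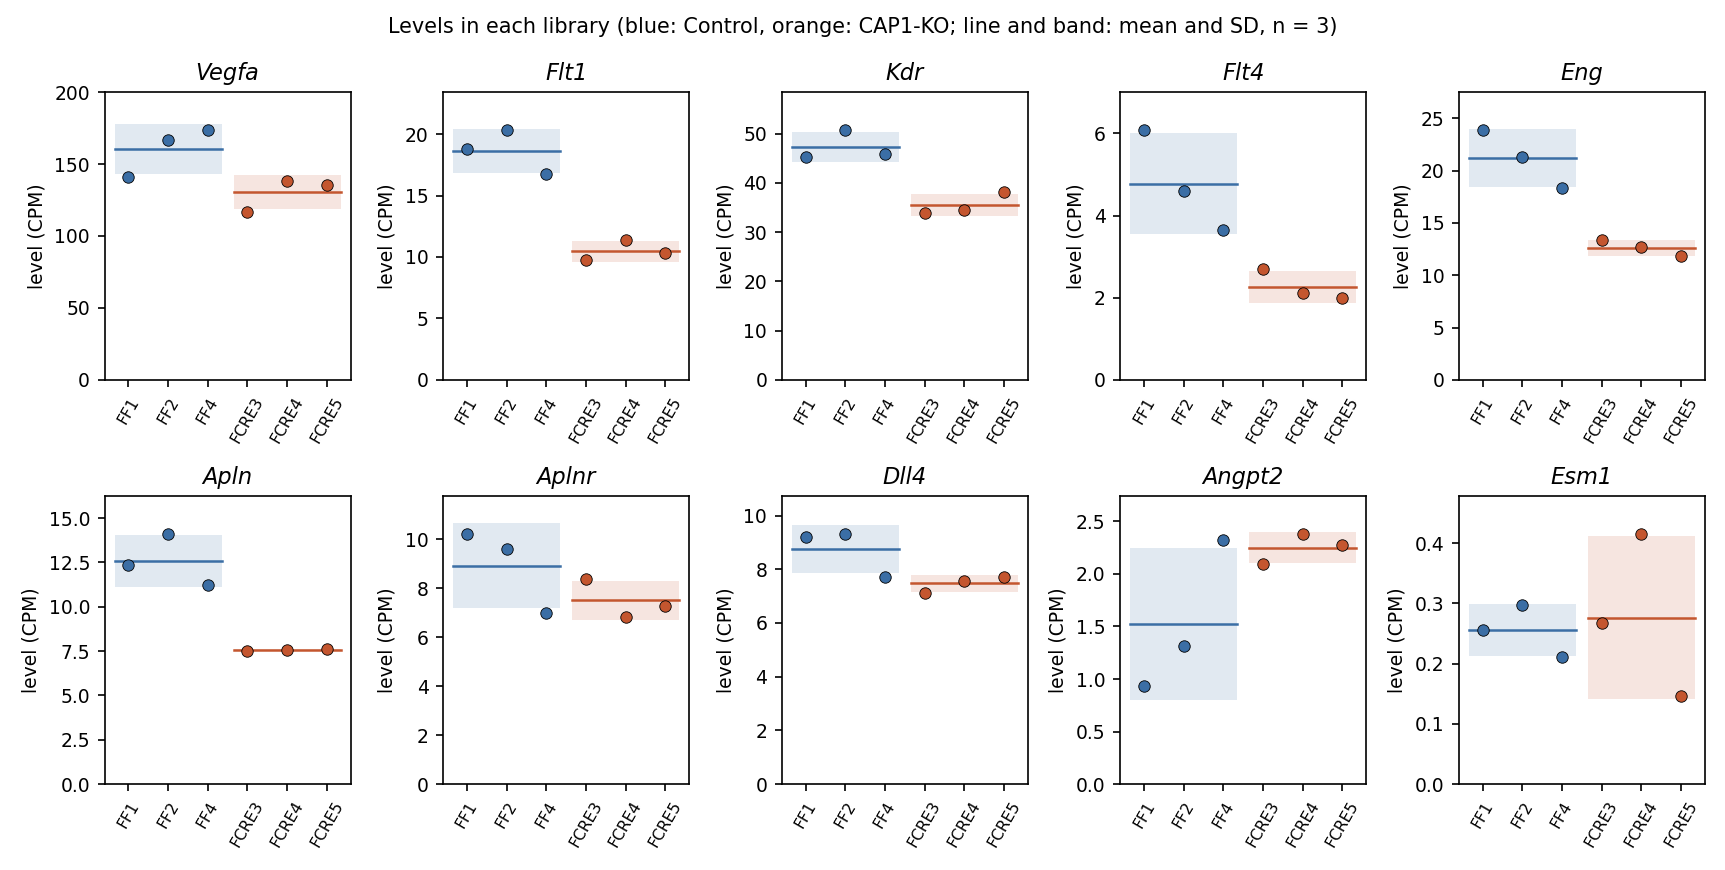
Level of each of the 10 genes in CPM (linear axis from 0) in the 3 Control libraries (blue) and the 3 CAP1-KO libraries (orange), with the group mean as a line and the SD as a band (n = 3 each). Vegfa, Flt1, Kdr, Flt4, Eng and Apln show no overlap between the groups, and Angpt2 in FF4 lies among the CAP1-KO values.

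Vegfa, the ligand, is placed on chromosome 17 (46016993 to 46032377, RefSeq, GRCm38.p6, as all gene positions here). It measured 141 CPM in FF1, 166 CPM in FF2 and 174 CPM in FF4, against 117, 138 and 136 CPM in FCRE3, FCRE4 and FCRE5. The groups did not overlap, although the gap between FF1 and FCRE4 was small. The means were 160.5 ± 17.2 CPM and 130.3 ± 11.7 CPM, and the log2 fold change of -0.30 (SE 0.09) did not pass (limma adjusted p = 0.133). It stayed short of the threshold in all 12 alternatives, with fold changes between -0.39 and -0.22.

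Flt1, the VEGF-A trap receptor, had the strongest call of the set. On chromosome 5 (147561604 to 147726438), it measured 18.8 CPM in FF1, 20.4 CPM in FF2 and 16.8 CPM in FF4, and then 9.73, 11.4 and 10.3 CPM in FCRE3, FCRE4 and FCRE5. All CAP1-KO libraries were well below the lowest Control value, and 56.2% of the Control level remained. The log2 fold change was -0.77 (SE 0.09, limma adjusted p = 0.0118). Without FF4 it was -0.84 (adjusted p = 0.000403). The call was lost without FF1 (-0.77, adjusted p = 0.0837), without FCRE3 (-0.73, adjusted p = 0.0564) and without FCRE5 (-0.76, adjusted p = 0.0867), while the fold change hardly moved. Reads were counted per gene, so the membrane-bound and secreted forms were not told apart.

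Kdr, the main signalling receptor, also on chromosome 5 (75932827 to 75979072), fell less. Its level was 45.2 CPM in FF1, 50.9 CPM in FF2 and 45.9 CPM in FF4, against 33.8, 34.6 and 38.1 CPM in FCRE3, FCRE4 and FCRE5. The groups were separated, with means of 47.3 ± 3.07 and 35.5 ± 2.28 CPM and a log2 fold change of -0.40 (SE 0.07, limma adjusted p = 0.0462). That call lay just inside the threshold and was lost without FF1 (adjusted p = 0.152), FF2 (0.189), FCRE3 (0.172), FCRE4 (0.0721) or FCRE5 (0.118), with fold changes between -0.46 and -0.35 in these 5 fits. It was also lost with scaling to total reads (-0.34, adjusted p = 0.0601) and with no filter on low values (0.0747). Within each library, the Flt1 level was 0.42, 0.40 and 0.37 of the Kdr level in FF1, FF2 and FF4 and 0.29, 0.33 and 0.27 in FCRE3, FCRE4 and FCRE5, so Flt1 was lower in CAP1-KO also in proportion to Kdr.

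Flt4, the VEGF-C receptor on chromosome 11 (49609679 to 49652739), had the largest fold change of the set but did not pass. It was read at 6.09 CPM in FF1, 4.59 CPM in FF2 and 3.66 CPM in FF4, then at 2.71, 2.10 and 1.98 CPM in FCRE3, FCRE4 and FCRE5. The groups did not overlap, yet the Control libraries were spread widely (SD 1.23 CPM around a mean of 4.78). The log2 fold change was -0.81 (SE 0.17, limma adjusted p = 0.0752), and without FF4, the lowest Control library, it was -0.95 and passed (adjusted p = 0.00193). Lyve1, a marker of lymphatic endothelium, was listed at 0 in every library. How that value arose in the counting is not known, so it is no measure of lymphatic vessels here.

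Eng encodes endoglin, an endothelial co-receptor for BMP and TGF-beta ligands. On chromosome 2 (32646595 to 32682669), it measured 23.9 CPM in FF1, 21.3 CPM in FF2 and 18.4 CPM in FF4, against 13.4, 12.7 and 11.8 CPM in FCRE3, FCRE4 and FCRE5. FF4 was again the Control library nearest to CAP1-KO, without overlap. Means were 21.2 ± 2.78 and 12.6 ± 0.77 CPM (n = 3 each), a fall with a log2 fold change of -0.70 (SE 0.10, limma adjusted p = 0.0279). Without FF4 the fold change was -0.79 (adjusted p = 0.000423). The call was lost without FF1 (-0.61, adjusted p = 0.110), FF2 (-0.69, 0.119), FCRE3 (-0.74, 0.0764) and FCRE5 (-0.66, 0.159). It was also lost with no filter on low values (adjusted p = 0.0559).

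Apln encodes apelin, a peptide made by sprouting endothelium. It lies on the X chromosome (48025146 to 48034853) and measured 12.4 CPM in FF1, 14.1 CPM in FF2 and 11.2 CPM in FF4, against 7.51, 7.59 and 7.64 CPM in FCRE3, FCRE4 and FCRE5. All 3 CAP1-KO values lay far below the Control range and close to one another, with a spread (0.867% of the mean) below the counting error of a single library (6.07%). The log2 fold change was -0.66 (SE 0.09, limma adjusted p = 0.0246). FF2, the 1 Control library with Xist levels like those of CAP1-KO, had the highest Apln level, and the CAP1-KO mean was 53.7% of it. The call was lost without FF1 (-0.66, adjusted p = 0.138), FF2 (-0.58, 0.0838), FCRE3 (-0.65, 0.0927) and FCRE5 (-0.66, 0.145). It was also lost with no filter on low values (adjusted p = 0.0622).

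Aplnr, the apelin receptor on chromosome 2 (85136360 to 85139923), did not pass. Its level was 10.2 CPM in FF1, 9.59 CPM in FF2 and 6.98 CPM in FF4, against 8.39, 6.84 and 7.29 CPM in FCRE3, FCRE4 and FCRE5. FF4 sat among the CAP1-KO libraries, and the log2 fold change was -0.21 (SE 0.14, limma adjusted p = 0.408). Without FF4 it was -0.36 and passed (adjusted p = 0.0302). The ratio of Apln to Aplnr was 1.43 ± 0.20 in Control and 1.02 ± 0.11 in CAP1-KO (n = 3 each), with separated groups. That ratio was 1.21 in FF1, 1.47 in FF2 and 1.61 in FF4, against 0.89, 1.11 and 1.05 in FCRE3, FCRE4 and FCRE5.

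The tip-cell genes Dll4 and Angpt2 did not pass, and Esm1 was not tested. Dll4, the Notch ligand on chromosome 2 (119325784 to 119335666), was read at 9.20 CPM in FF1, 9.32 CPM in FF2 and 7.70 CPM in FF4, against 7.13, 7.56 and 7.72 CPM in FCRE3, FCRE4 and FCRE5. FF4 and FCRE5 were level, and the log2 fold change was -0.20 (SE 0.09, limma adjusted p = 0.247). Angpt2, a ligand of the TIE2 receptor on chromosome 8 (18690263 to 18741562), was the 1 member with a positive fold change. It measured 0.93 CPM in FF1, 1.31 CPM in FF2 and 2.33 CPM in FF4, against 2.09, 2.38 and 2.27 CPM in FCRE3, FCRE4 and FCRE5. The log2 fold change of 0.40 (SE 0.19) did not pass (limma adjusted p = 0.262), and FF4 alone among the Control libraries carried the CAP1-KO level. Without FF4, Dll4 (-0.28, adjusted p = 0.0435) and Angpt2 (0.62, adjusted p = 0.00842) both passed.

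Esm1, a secreted proteoglycan of tip cells on chromosome 13 (113209659 to 113218104), was near the limit of detection. It had 8 reads in FF1, 10 in FF2 and 7 in FF4, against 10 in FCRE3, 15 in FCRE4 and 5 in FCRE5. With 25 reads over Control and 30 over CAP1-KO, no difference was detectable at this depth.

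FF4 was the lowest Control library for 7 of the 10 members (Flt1, Flt4, Eng, Apln, Aplnr, Dll4 and Esm1) and the highest for Vegfa and Angpt2. Without it 7 of 9 members passed as lower and Angpt2 as higher. In that fit 18.9% of all genes tested were lower and 9.36% higher, so the share called over all genes was larger too. Against FF4 alone, the CAP1-KO mean still stood at 62.4% for Flt1, 61.9% for Flt4, 67.6% for Apln, 68.8% for Eng, 74.9% for Vegfa and 77.4% for Kdr. It stood at 97.0% for Dll4, 96.7% for Angpt2 and 108% for Aplnr.

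**Figure D2:**
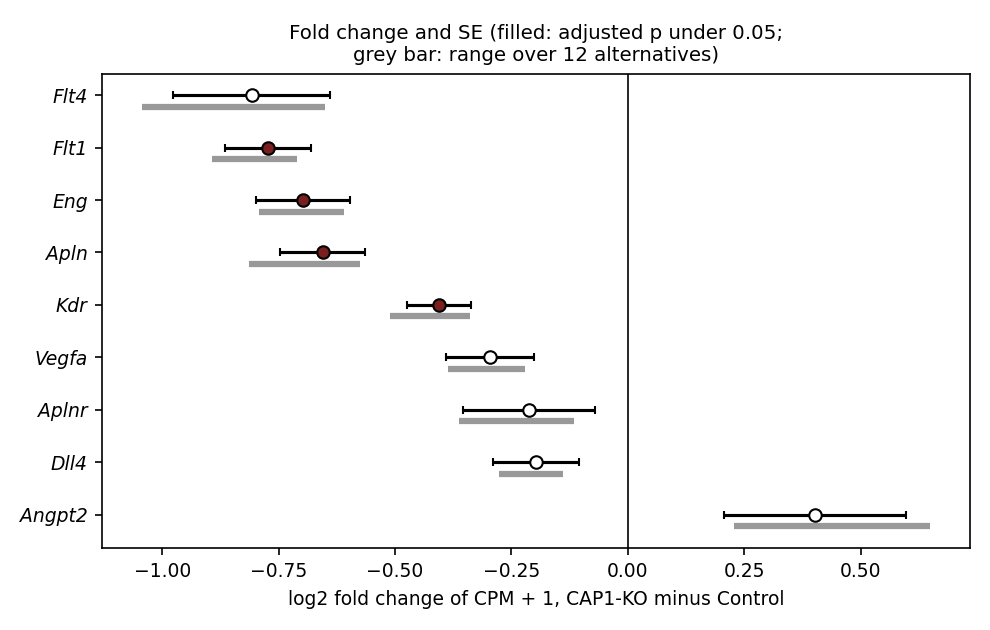
Log2 fold change of CPM + 1 (CAP1-KO minus Control) with its SE for the 9 tested members, filled where the adjusted p was under 0.05, with a grey bar for the range over 12 alternative settings. Only Angpt2 lies to the right of 0, and no bar crosses 0.

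Start-site sequence was read for the members that fell together. RefSeq start windows (GRCm38.p6) matched 8 of the 10 members, all but Aplnr and Angpt2, with 9 windows. The 250 bases before the RefSeq start are shown for Apln (chrX:48034854-48035103, minus strand) and Eng (chr2:32646345-32646594, plus strand), because these windows share 0 bases with GENCODE transcripts and with the RefSeq span of the gene. Each is printed 5′ to 3′ on the gene's strand. Capitals mark matches on either strand to GGGCGG (the GC box), CCGGAA (an ETS core) or ACGTG (the core bound by hypoxia-inducible factors).
Eng: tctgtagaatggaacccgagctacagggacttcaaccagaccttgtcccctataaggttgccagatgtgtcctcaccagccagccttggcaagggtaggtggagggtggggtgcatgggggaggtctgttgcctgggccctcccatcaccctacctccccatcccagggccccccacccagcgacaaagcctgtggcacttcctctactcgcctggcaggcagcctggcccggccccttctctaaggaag
Apln: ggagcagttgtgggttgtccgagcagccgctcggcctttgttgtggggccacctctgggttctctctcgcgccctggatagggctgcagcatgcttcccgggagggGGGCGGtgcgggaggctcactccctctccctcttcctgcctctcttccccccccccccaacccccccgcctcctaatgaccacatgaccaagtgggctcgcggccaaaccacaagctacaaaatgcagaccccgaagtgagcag

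The Flt1 and Kdr windows share 0 and 3 bases with GENCODE transcripts but lie wholly (250 bases) inside the wider RefSeq span of their genes, so they precede 1 of several possible starts. Flt1 held 3 GC boxes, Kdr 2 GC boxes and 1 ETS core, Apln 1 GC box, and Eng none of these motifs. The GC box was present in 7 of the 9 windows of the members, both Vegfa windows among them. It was present in 32.7% of all 32851 windows of the table, whose median GC content was 52.4%. The windows of Flt4, Dll4 and Esm1 and the second Vegfa window lie wholly (250 bases) inside GENCODE transcripts, so these counts are not of upstream sequence alone. The Flt1 window had a GC content of 70.4%, Apln 65.2%, Eng 62.4% and Kdr 61.6%. The ETS core was found in 12% of all windows and in 1 of the members' 9. The ACGTG core was in 16.6% of all windows and in 1 of the members' 9, the second Vegfa window. That window lies wholly inside the RefSeq span of Vegfa too, and the bases after its start matched no GENCODE transcript of the gene. The CArG box, the sequence bound by SRF, was in 1.47% of all windows and in 0 of the 9. These matches describe letters in a short window and show neither binding nor its absence.

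Compared per length (CPM per kilobase of merged GENCODE exons), Vegfa stood far above the other members in Control, at 37.4 ± 4.0. Kdr (5.24 ± 0.34) and Eng (5.24 ± 0.69) followed and did not differ beyond their spread. Apln came next at 3.99 ± 0.46. Aplnr (2.41 ± 0.47) and Dll4 (2.27 ± 0.23) overlapped with each other, and Flt1 measured 1.38 ± 0.13. Flt4 (0.58 ± 0.15) overlapped with Angpt2 (0.41 ± 0.20), and Esm1 was lowest at 0.12. Merged exons include every annotated form, which lowers the value of genes with long alternative exons. In CAP1-KO the order was the same except that Angpt2 (0.61) stood above Flt4 (0.28).

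Markers of endothelium in general show how far the members' values stand beside the whole cell type. Of 17 such markers, members left out, 15 had a negative fold change, beside 51.7% of all genes tested. Their median was -0.21. In limma 0 passed either way, 7 had an unadjusted p under 0.05, all lower, and 0 passed in limma-voom. At that unadjusted p, 15.3% of all genes tested were lower and 7.74% higher. Pecam1, an adhesion protein of all endothelium, measured 19.6 ± 1.17 and 17.4 ± 2.37 CPM, and Cldn5, the main claudin of brain endothelial tight junctions, 34.9 ± 4.30 and 27.4 ± 1.34 CPM. The list summed to between 217 and 239 CPM in Control and between 185 and 199.9 CPM in CAP1-KO. Without FF4 its median was -0.20 and 6 of the 17 passed as lower, beside 18.9% of all genes tested. Brain barrier endothelial markers had a median of -0.14 (12 tested, 10 negative, 0 passing, 5 at an unadjusted p under 0.05 and 0 in limma-voom), and 1 of that list, Slco1a4, was listed at 0 in every library, with the same doubt about the counting as for Lyve1.

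Set against the mean log2(CPM + 1) of the 17 pan-endothelial markers in the same library, 5 members showed CAP1-KO below Control without overlap. The marker mean itself was 3.41 in Control and 3.21 in CAP1-KO, a difference of -0.20. The share of all genes separated on this scale was not computed, so the count has no background beside it. The difference between the group means of this log2 value was -0.61 for Flt4, -0.57 for Flt1, -0.49 for Eng, -0.45 for Apln and -0.20 for Kdr. For Flt1 it was 0.84, 1.01 and 0.78 in FF1, FF2 and FF4, and 0.26, 0.45 and 0.22 in FCRE3, FCRE4 and FCRE5. Vegfa (-0.09), Aplnr (-0.01), Dll4 (0.01) and Esm1 (0.22) overlapped between the groups on this scale. VEGF-A comes from neurons and their progenitors, so the Vegfa value is no level per endothelium. Esm1 had only 5 to 15 reads per library, so its value mostly mirrors the change of the marker mean. Angpt2 was higher in CAP1-KO without overlap (0.61), with FF4 (-1.64) close to the lowest CAP1-KO library (-1.57). In CPM its groups overlapped, with FF4 (2.33) above FCRE3 (2.09) and FCRE5 (2.27), so the separation appeared only after the marker mean was subtracted. The gene had 29 to 86 reads per library. These are differences from a marker mean, given as a description.

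**Figure D3:**
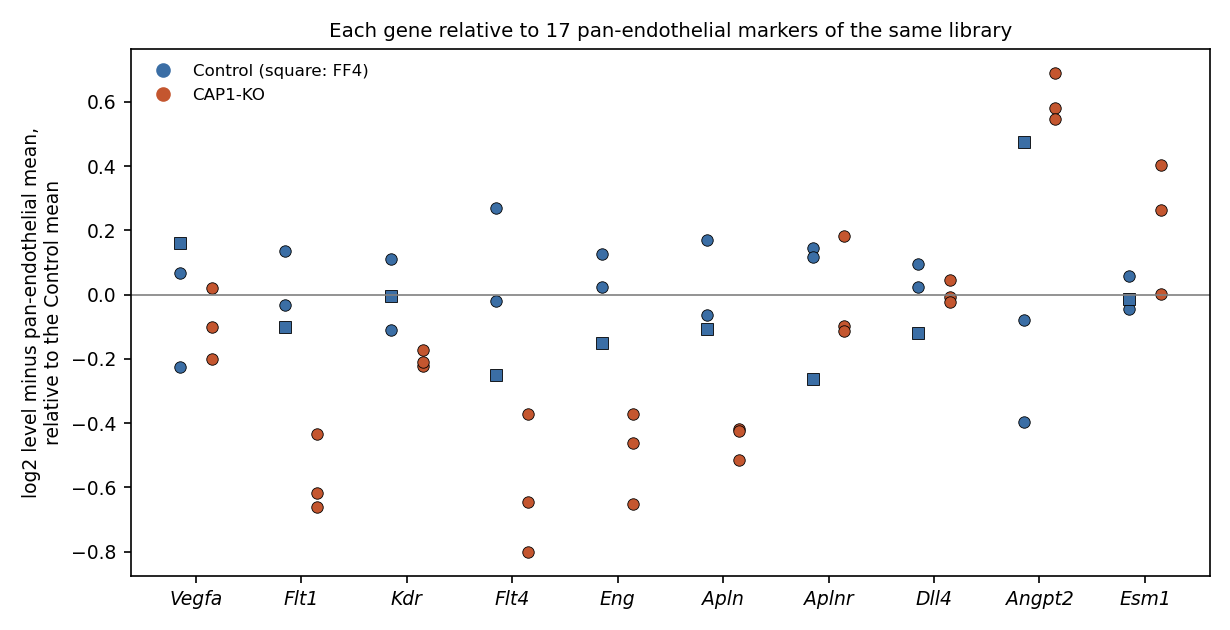
Log2(CPM + 1) of each gene minus the mean of 17 pan-endothelial markers in the same library, drawn relative to the Control mean, for Control (blue, FF4 as a square) and CAP1-KO (orange). Flt1, Kdr, Flt4, Eng and Apln show CAP1-KO below Control without overlap, while the groups overlap for Dll4 and Aplnr.

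Other genes of the pathway came from 10 lists. Of 131 distinct genes tested, 101 had a negative fold change and the median was -0.11. Over all genes tested, 51.7% were negative. In limma 3 of the 131 fell and 0 rose, while 45 lower and 4 higher had an unadjusted p under 0.05, beside 15.3% of all genes lower and 7.74% higher at that p. In limma-voom 2 fell and 0 rose. The 3 that fell were Pdgfb, Rfng and Ddit4. Without FF4, 49 fell and 6 rose, beside 18.9% of all genes lower and 9.36% higher in that fit. The groups were separated with CAP1-KO lower in 35 of the 131 and higher in 4, beside 14.6% and 11.1% of all genes tested.

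Pdgfb, the growth factor with which tip cells recruit pericytes, fell with no overlap between the groups. It measured 13.0, 11.9 and 12.4 CPM in FF1, FF2 and FF4 and 7.51, 8.56 and 8.69 CPM in FCRE3, FCRE4 and FCRE5, with FF4 well inside the Control range. Its log2 fold change was -0.54 (SE 0.08, limma adjusted p = 0.0309). The call was lost without FF1 (adjusted p = 0.169), FF2 (0.115), FCRE3 (0.0927) or FCRE5 (0.142). Scaling to total reads (adjusted p = 0.0531), no filter on low values (0.0789) and the Xist covariate (0.238) lost it too. Of the 16 tested genes in that list of other tip-cell enriched genes, 15 had a negative fold change, and the median was -0.27. The list also holds the basement membrane collagens Col4a1 (179.7 ± 21.3 and 134.5 ± 10.7 CPM) and Col4a2 (142 ± 19.1 and 94.6 ± 14.7 CPM), which did not pass (limma adjusted p = 0.0886 and 0.0839). Col4a1, Col4a2 and Ednrb here, Pecam1 and Cldn5 above, and Tie1, Acvrl1, Epas1 and Plvap below fell outside the naming rule and were chosen after their values were seen. Ednrb, an endothelin receptor also found on glia, was the 1 gene of the list with a positive fold change (0.64, adjusted p = 0.0886).

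Among the other VEGF ligands, receptors and co-receptors no gene passed. All 8 were tested, 0 passed, 2 had an unadjusted p under 0.05, both lower, and 0 passed in limma-voom. The share of all genes tested that were lower at that p was 15.3%. The list had a median of 0.08. Nrp1, a VEGF-A co-receptor also found on axons, averaged 201.6 ± 28.8 and 165 ± 8.39 CPM, and FF4 (169 CPM) lay among the CAP1-KO libraries (log2 fold change -0.28, limma adjusted p = 0.166, and -0.40 and 0.00088 without FF4). Nrp2, its paralog, measured 144.9 ± 23.0 and 157.5 ± 7.51 CPM (0.13, adjusted p = 0.498, and 0.25 and 0.0265 without FF4). Genes that act downstream of the receptors had a median of -0.14 (14 tested, 12 negative, 0 passing in limma or limma-voom, 4 lower at an unadjusted p under 0.05). Akt1, a survival kinase, measured 365.5 ± 48.0 and 309 ± 1.38 CPM, and Fyn, a Src family kinase, 300.0 ± 23.6 and 279 ± 5.88 CPM.

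Notch genes of tip and stalk selection had a median of -0.12, with 15 tested and 11 negative. Rfng, a sugar transferase that modifies Notch, fell by 0.29 on the log2 scale, with means of 88.8 ± 3.71 and 72.4 ± 2.03 CPM (limma adjusted p = 0.0464) and kept this call in 3 of 12 alternatives. It was lost without FF1 (adjusted p = 0.223), FF2 (0.211), FCRE3 (0.176), FCRE4 (0.0531) or FCRE5 (0.254). Angiopoietin and Tie genes had a median of -0.26 (6 tested, 4 negative, 0 passing in limma or limma-voom, 4 lower at an unadjusted p under 0.05, beside 15.3% of all genes lower at that p). The receptor gene Tie1 measured between 9.49 and 14.2 CPM in Control and between 6.76 and 8.25 CPM in CAP1-KO (limma adjusted p = 0.0933). Its list mates Foxo1 (0.20) and Angpt1 (0.09), a transcription factor and the activating ligand of TIE2, had positive log2 fold changes that did not pass. Genes of the endoglin and ALK1 pathway had a median of -0.04 (14 tested, 8 negative, 0 passing in limma or limma-voom, 4 lower at an unadjusted p under 0.05). Acvrl1, which encodes the ALK1 receptor that endoglin assists, measured 7.13 ± 0.59 and 5.13 ± 0.30 CPM (adjusted p = 0.0848), whereas Id2 (-0.17) and Smad5 (0.05) overlapped between the groups.

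Signals that the neural tissue sends to vessels and the oxygen-sensing genes that control Vegfa showed few calls. The list of Wnt7, Norrin and integrin beta 8 signals had a median of -0.08 (16 tested, 12 negative, 0 passing in limma or limma-voom, and 6 lower and 1 higher at an unadjusted p under 0.05). For this list and those that follow, the shares of all genes at that p were 15.3% lower and 7.74% higher. Wnt7b, a neural Wnt ligand for brain vessels, measured 172 CPM in FF1 and 173 CPM in FF2, but 103 CPM in FF4 and between 97.3 and 110 CPM in CAP1-KO, so FF4 lay among the CAP1-KO libraries. Ctnnb1, which encodes beta-catenin, had a log2 fold change of -0.03 (0.03 with scaling to total reads). All 11 HIF control genes had a negative fold change with a median of -0.05, 0 passed in limma or limma-voom, and 2 were lower at an unadjusted p under 0.05, near the share of all genes. Hif1a measured 148 ± 7.68 and 145 ± 5.11 CPM and Arnt2 419.9 ± 8.87 and 399 ± 11.4 CPM, and Epas1, the HIF subunit of endothelium, 21.0 ± 3.06 and 14.5 ± 0.82 CPM (limma adjusted p = 0.0784). Among 16 HIF target genes the median was -0.06 and Ddit4, a stress-induced inhibitor of mTORC1, fell from 129.6 ± 7.72 to 89.4 ± 10.5 CPM (limma adjusted p = 0.042, called in 5 of 12 alternatives). That call was lost without any 1 of the 5 libraries other than FF4, with adjusted p between 0.0588 and 0.184. Endothelial transcription factors had a median of -0.18 (15 tested, 13 negative, 0 passing in limma or limma-voom, and 6 lower and 2 higher at an unadjusted p under 0.05), with Ets2 at 37.3 ± 0.84 and 29.6 ± 1.78 CPM (adjusted p = 0.0555) and Nr2f2 at 74.9 ± 10.1 and 90.1 ± 4.86 CPM (adjusted p = 0.148).

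**Figure D4:**
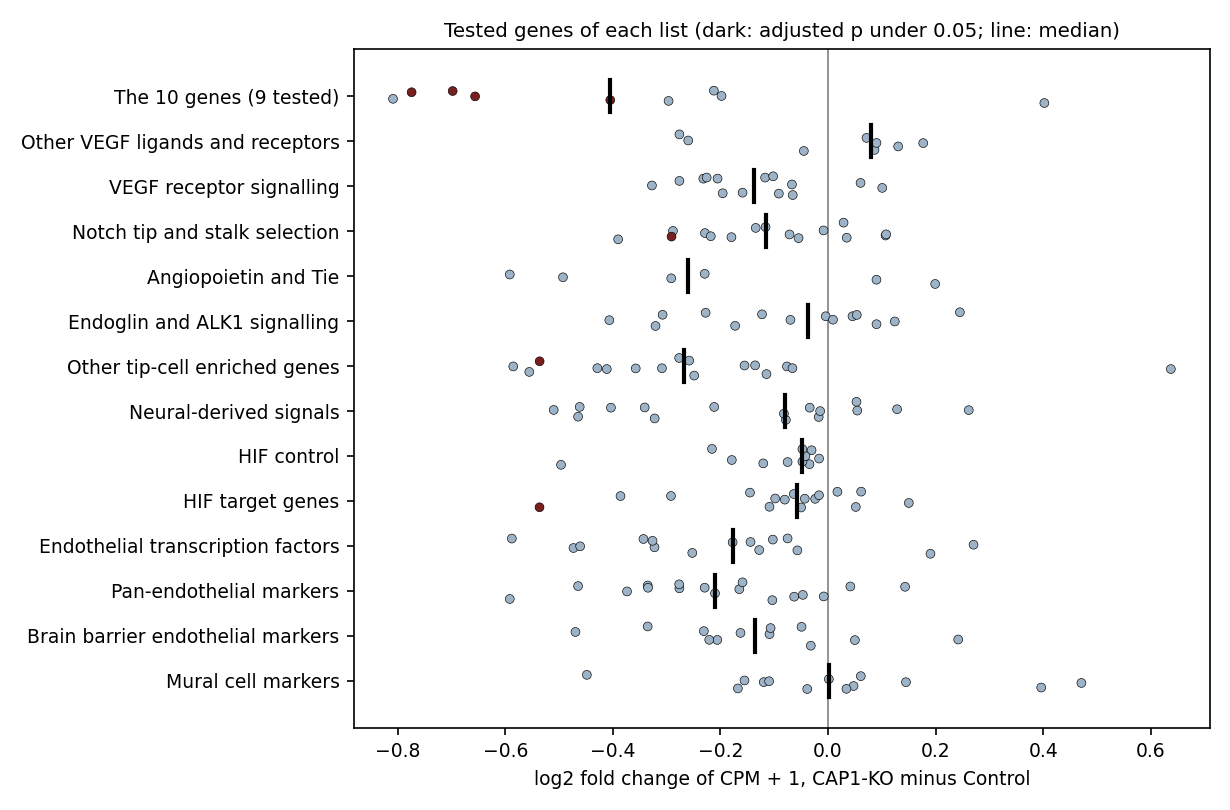
Log2 fold change of CPM + 1 (CAP1-KO minus Control) of every tested gene in the member set, the 10 pathway lists and 3 vascular marker lists, with dark points for an adjusted p under 0.05 and a black line at each median. The member median (-0.40) lies left of the other list medians, which run from -0.27 to 0.08.

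Markers of other cell types are given beside the contrast, and genes that passed were found in the smooth muscle, microglia and choroid plexus lists. Mural cell markers, which label pericytes and vascular smooth muscle, had a median of 0.00 (13 tested, 0 passing in limma or limma-voom, 2 higher and 1 lower at an unadjusted p under 0.05) and summed to between 192 and 205 CPM in Control and between 182 and 208 CPM in CAP1-KO. At that p, 7.74% of all genes tested were higher and 15.3% lower. Without FF4, 9.36% of all genes passed as higher and 18.9% as lower. Of 6 tested smooth muscle contractile genes 5 rose, also without FF4, with a summed level between 21.2 and 22.2 CPM in Control and between 101 and 150 CPM in CAP1-KO. Microglia and macrophage markers summed to between 64.1 and 82.1 CPM in Control and between 95.7 and 126 CPM in CAP1-KO (13 tested, 13 positive, 1 passing, and 10 without FF4). Choroid plexus markers, a tissue whose vessels are fenestrated, summed to between 13.0 and 20.1 CPM and between 68.9 and 136 CPM (5 tested, 1 rose, and 5 without FF4). Fenestrated and lymphatic endothelial markers had a median of 0.16 (4 tested, 3 positive, 1 negative, 0 passing in limma or limma-voom, 1 higher at an unadjusted p under 0.05). Unlike most of that list, Plvap, a marker of fenestrated endothelium, had a lower mean in CAP1-KO. It measured 2.83 ± 0.38 and 2.20 ± 0.54 CPM with overlapping groups. Meningeal fibroblast markers summed to between 15.5 and 16.9 CPM in Control and to 18.7, 99.3 and 89.1 CPM in FCRE3, FCRE4 and FCRE5 (7 tested, 0 passing in limma or limma-voom, 6 higher at an unadjusted p under 0.05). FCRE3, with a meningeal sum near that of Control, had the lowest Flt1, Kdr and Apln levels of the 6 libraries, and the highest Eng and Flt4 levels of the 3 CAP1-KO libraries. The gaps are small: Apln measured 7.51, 7.59 and 7.64 CPM in FCRE3, FCRE4 and FCRE5, within a counting error of 6.07% per library. Red blood cell markers summed to between 153 and 166 CPM in Control and between 138 and 249 CPM in CAP1-KO (4 tested, 0 passing in limma or limma-voom, 0 at an unadjusted p under 0.05). Astrocyte and radial glia markers had a median of 0.08, striatal and ventral forebrain markers of 0.43 and cortex markers of -0.32. In limma and limma-voom 0 of these passed, and at an unadjusted p under 0.05 there were 1 higher glial gene, 3 higher and 1 lower striatal genes and 2 lower cortex genes. Without FF4, 9 of the 10 cortex markers fell (median -0.53), 10 of the 12 striatal and ventral markers rose (median 0.65), and of 10 glial markers 3 rose and 1 fell. The part of these cell types, of tissue region and of embryo sex in the members' values was not tested beyond the alternatives given here.

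With the Xist level as a covariate, 0 of 9 members passed. Of all 13885 genes tested, 3 were lower and 23 higher in that fit. Xist was high in every CAP1-KO library and, among Control, in FF2 only. Covariate and group therefore largely coincide, and the fit has little power to part them. With the covariate, the log2 fold changes were -0.89 for Flt1 and -0.81 for Apln (limma adjusted p = 0.0904 for both), -0.70 for Eng (0.230) and -0.51 for Kdr (0.155). Against FF2, the only Control library with high Xist, the CAP1-KO mean stood at 51.4% for Flt1, 53.7% for Apln, 59.3% for Eng and 69.8% for Kdr. In the authors' deposited table, Flt1 (log2 fold change -0.83, FDR 0.00329), Eng (-0.75, 0.00953), Apln (-0.73, 0.0118), Kdr (-0.42, 0.0243) and Flt4 (-1.07, 0.0471) were lower at an FDR under 0.05. The authors' deposited table gives an FDR of 0.167 for Vegfa and of 0.425 or more for the other 4. Among its 27179 genes, 112 were lower and 109 higher at an FDR under 0.05. Those values come from the same 6 libraries and are no separate test.

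Over the 6 libraries, the listed gene most like each tested member was found by Pearson correlation of log2(CPM + 1) among 245 candidates, as a description. Flt1 and Apln were closest to each other (r = 0.987). Eng lay closest to Cd93 (0.987), a pan-endothelial marker, Flt4 to Sox17 (0.990), an endothelial transcription factor, and Kdr to Ddit4 (0.975). Dll4 followed Igfbp3 (0.996), Aplnr followed Plcg1 (0.991), Vegfa followed Drd1 (0.958), a striatal dopamine receptor, and Angpt2 followed Itm2a (0.970), a barrier endothelial marker. With 6 libraries in 2 groups, such values tend to be high for pairs of genes that differ between the groups. Aplnr, Dll4 and Angpt2 overlapped between the groups, with FF4 near the CAP1-KO levels. Each value is also the highest of 245 candidates over only 6 libraries, so it can be high without a link between the genes.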

How the data were processed

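The values deposited by the authors are depth-normalized counts on a log2 scale, with a log2 fold change, an F score, a p-value and an FDR per gene, per the file headers. The submitters' processing notes name STAR, edgeR, GRCm38 and mm10. The counter and annotation are not given in the sources used. Libraries were stranded, per the labels' protocols. Columns were mapped to groups by name.

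Antilogs minus the lowest value (0.0584 CPM) gave whole reads, 100% within 0.01. Because the table held log2 values, limma 3.58.1 (R 4.3.3) with an intensity trend was run on log2(CPM + 1), which understates changes of low genes, for the 13885 genes averaging 1 CPM or more. P-values were Benjamini-Hochberg adjusted over all of them (threshold 0.05). The fit was tested on simulated data.

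The members and the 10 pathway and 12 cell type lists were chosen with earlier results of these data known. Named are the members, Cap1, Xist, up to 4 passing genes of each pathway list (the 2 most expressed where none passed) and each member's most similar listed gene. Ca9 and Hbb-bt were not matched. Alternatives were median-of-ratios and total-read scaling, limma-voom on recovered reads (78 genes higher, 53 lower), no filter, a pseudocount of 0.1, each library left out and Xist as a covariate. Figures used matplotlib 3.10.9.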

Additional observations from a re-analysis of the deposited data

How the results depend on the processing

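Over all genes, 78 were higher and 56 lower. With single libraries left out, the genes higher ranged from 33 to 1299, the genes lower from 3 to 2623, the members lower from 0 to 7 (main count 4), the pathway genes higher from 0 to 6 (main count 0) and the pathway genes lower from 0 to 49 (main count 3). The upper ends came without FF4. With the Xist covariate 23 genes were higher and 3 lower, with 0 members and 0 pathway genes lower. With no filter on low values 20 genes were lower, with 1 member and 0 pathway genes among them. With scaling to total reads 3 members and 1 pathway gene were lower. The cause of these shifts was not tested. For 27 single genes, members included, 324 values under 12 alternatives were compared: 259 kept direction and side of the threshold, 47 lost their call, 13 gained one and 5 changed sign. The sign changes were in Smad5 (-0.0068 without FF4, at most 0.088 with a library left out, -0.012 with the Xist covariate), Ctnnb1 (0.014 without FCRE4, at lowest -0.064 with a library left out, 0.032 with scaling to total reads) and Hif1a (0.035 with that scaling, which moved the median of all genes to 0.06), none of which passed. No member changed sign. No paired analysis was possible because the numbers in the column names (FF1, FF2, FF4 and FCRE3 to FCRE5) differ from those the labels give. Depth limits Esm1.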
